A study of Saccharomyces cerevisiae with 176 samples.

Results

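Budding yeast makes lysine from 2-oxoglutarate and acetyl-CoA through the aminoadipate pathway, a route found in fungi. The enzymes of this pathway were followed across every library of a series on aneuploid yeast. The 7 genes were taken by name from a table of 6692 genes: LYS20, LYS21, LYS4, LYS12, LYS2, LYS9 and LYS1. In batch culture, LYS4, LYS21, LYS2 and LYS20 were lower in aneuploid strains than in the one euploid strain, by 0.40 to 0.79 on the log2 scale. None of these calls held with strain as a random block, or in exp2 or exp3 alone. In the chemostat none of the 7 passed the test of aneuploid strains against 2N, the euploid strain, where 16.0% of all genes did. That test had 2 libraries of 2N. A direct test between the batch and chemostat differences called LYS2 alone, and not over the 5 strains in both settings. In pools of spore progeny the direction of the aneuploid difference in LYS20 and LYS4 changed with the protocol. In a culture of a WT haploid 5 of the 7 genes were called lower at 16 h than at 14 h, where 13.6% of all genes were. LYS20 and LYS1 were also lower there but did not pass.

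Lys20 and Lys21 are the homocitrate synthases that open the pathway and are held in check by lysine itself. Lys4 (homoaconitase) and Lys12 (homoisocitrate dehydrogenase) carry the intermediate forward in the mitochondrion, and an aminotransferase such as Aro8 turns it into aminoadipate. Lys2 (aminoadipate reductase, made active by Lys5) and the saccharopine dehydrogenases Lys9 and Lys1 complete the path to lysine. Transcription of the genes is raised by Lys14, which responds to a pathway intermediate, and by Gcn4, the activator of general amino acid control.

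The libraries fell into 81 groups, and the values are log2(TPM + 1), where TPM is the usual estimate of level per transcript length. The strains of experiments exp1 to exp6, the chemostat and the populations are of S288C background. Batch cultures grew exponentially in YEPD with 2% glucose at 25 °C. The euploid strain 2N was sequenced in exp1 to exp3 only (8 libraries), beside 36 libraries of the aneuploid strains A1, A18 to A23, A25, A27 and A35; exp4, exp5 and exp6 held 18, 24 and 24 libraries of aneuploid strains alone. Chemostat cultures were limited for phosphate at a dilution rate of 0.17 per hour and comprised 2N and the strains A18, A20 to A24, A34, A37 and A38, each in 2 libraries. Populations were pooled colonies of spore progeny, from diploids for the euploid pools and from triploids for the aneuploid ones, all carrying the plasmid pRS315-STE2pr-spHIS5. They were prepared by protocols named Tsai and Dilution, and were sequenced beside the exponentially growing WT haploid A2050 (3 libraries a group). The same haploid was sampled every 2 h from 0 to 26 h (2 libraries a time). The latest time is 26 h in one label and 28 h in others. A W303 haploid, A2587, was treated with 500 mM NaCl for 40 min at 30 °C (3 libraries, no untreated partner). The libraries of exp1 to exp4 came from total RNA and those of exp5, exp6, the chemostat, populations and time course from poly(A) RNA. The NaCl libraries are also labelled as poly(A) RNA.

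The genes of the table held 5.03% to 12.35% of the TPM total in exp1 to exp4, 85.07% to 99.63% in exp5, exp6, the chemostat and the populations, and 14.01% to 20.52% in the NaCl libraries, so levels are compared within a setting. In the time course that share ran from 15.37% (24 h, replicate 1) to 97.25%, with 4 of the 6 libraries from 22 h on under 50%. A library of exp4 named A18 carries the strain name A20 in another label, and a chemostat library named A24 carries A25. The number of reads behind each value is unknown, since read counts were not analysed here. The labels do not say that replicates came from separate cultures, so p-values measure only the spread between these libraries. In bulk RNA, fewer cells that express a gene and less RNA per cell cannot be told apart. All aneuploid comparisons in batch and in the chemostat rest on 1 euploid strain. In the chemostat mean of the aneuploid strains, 4 of 4 alpha-cell markers and 5 of 6 haploid markers were higher than in 2N, as were 164 of 5674 genes. Single aneuploid libraries lay on both sides of 2N. On the log2 scale rescaled to the table's total, alpha-cell markers had mean levels of 2.44 to 10.04, against 3.13 to 3.50 in 2N. Those of a-cell markers were 1.82 to 8.21, against 4.09 to 4.69.

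The 7 genes have 1 exon each and lie on 4 chromosomes of the sacCer3 assembly. LYS20 (YDL182W, chrIV:133437-134723), LYS21 (YDL131W, chrIV:227393-228715) and LYS4 (YDR234W, chrIV:931129-933210) are on the plus strand. LYS12 (YIL094C, chrIX:186517-187632), LYS1 (YIR034C, chrIX:419615-420736), LYS2 (YBR115C, chrII:469748-473926) and LYS9 (YNR050C, chrXIV:714048-715388) are on the minus strand. LYS20 and LYS21 are 91.4% identical over 1281 aligned coding bases, and 37.8% of the 50-base windows of LYS20 occur unchanged in LYS21, so reads may have been split between them and their separate values are uncertain.

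The sequences shown next are matches to letters bound by the activators. The letters TCCNNNGGA, the core of the sequence bound by Lys14, and TGACTC, bound by Gcn4, were searched on both strands in the 500 bases before each start codon, in the RefSeq genome R64 (the same sequence as sacCer3). TCCNNNGGA was found before 4 of the 7 genes, against 6.06% of 6651 such regions in the genome, and TGACTC before 3 of 7, against 13.0%. Capitals mark the motif, 5′ to 3′ on the gene's strand.
LYS1, chrIX:420906-420950, 196 to 188 bases before the start codon: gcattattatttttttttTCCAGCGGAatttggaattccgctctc
LYS9, chrXIV:715587-715631, 225 to 217 bases before: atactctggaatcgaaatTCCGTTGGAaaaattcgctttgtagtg
LYS9, chrXIV:715525-715569, 163 to 155 bases before: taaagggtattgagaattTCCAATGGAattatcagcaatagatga
LYS12, chrIX:187788-187832, 182 to 174 bases before: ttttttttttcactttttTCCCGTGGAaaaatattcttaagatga
LYS21, chrIV:227045-227089, 330 to 322 bases before: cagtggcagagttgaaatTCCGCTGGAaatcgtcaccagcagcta
LYS2, chrII:474097-474138, TGACTC 194 to 189 bases before: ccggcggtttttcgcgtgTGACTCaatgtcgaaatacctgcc
LYS12, chrIX:187767-187808, TGACTC 158 to 153 bases before: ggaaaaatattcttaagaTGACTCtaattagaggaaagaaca
The remaining TGACTC matches, a pair before LYS1, were read on the opposite strand (249 to 244 and 134 to 129 bases before its start codon). The windows of LYS4 and LYS20 hold neither run of letters. These are matches of letters only, and the data hold no measure of binding.

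The first comparison asked whether aneuploid strains in batch culture differ from euploid 2N. LYS4 showed the clearest separation over the pooled libraries of exp1 to exp3. Its level ran from 2.74 through a median of 3.36 to 3.51 in the 2N libraries and from 1.68 through 2.60 to 3.18 in the aneuploid ones, with 25 of 36 aneuploid libraries below the lowest 2N library. For LYS21 the 2N libraries ran from 3.40 through 4.03 to 4.42, and the aneuploid libraries from 2.00 through 3.39 to 4.17. Here 18 of 36 lay below every 2N library. The partner homocitrate synthase LYS20 ran from 2.56 through 4.21 to 4.63 in 2N and from 1.86 through 3.35 to 4.25 in the aneuploid libraries; only 3 of 36 fell below the lowest 2N library but 35 lay below the 2N median. LYS2 ran from 3.07 through 3.43 to 3.78 in 2N and from 1.93 through 3.04 to 3.60 in aneuploid libraries, 19 of them below the lowest 2N library. The groups thus overlapped for all 4 genes, with the aneuploid libraries toward the low end. These ranges and counts pool the experiments, so shifts between experiments enter them. The table held 5.55% to 7.11% of the TPM total in exp1, 5.03% to 6.74% in exp2 and 7.45% to 11.58% in exp3.

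In the limma fit over the 44 libraries of exp1 to exp3, with strain and experiment as terms, 4 of the 6 lysine genes tested were lower in the mean of the aneuploid strains, against 4.19% of the 3152 genes tested that were lower and 14.2% called in either direction. With strain as a random block, which estimates the correlation between libraries of a strain, 0 of 6 passed (adjusted p = 0.863 to 0.996 for the 4), and 1 gene in the whole table did. LYS21 was lower by a log2 difference of -0.79 ± 0.17 (SE, adjusted p = 0.00115), LYS4 by -0.65 ± 0.13 (adjusted p = 0.000328), LYS20 by -0.52 ± 0.18 (adjusted p = 0.0408) and LYS2 by -0.40 ± 0.11 (adjusted p = 0.00694). LYS9 (-0.29 ± 0.17, adjusted p = 0.288) and LYS12 (-0.16 ± 0.16, adjusted p = 0.551) did not pass. LYS1, which makes lysine in the last step, was under the filter on low values and was not tested; it ran from 1.37 through 2.40 to 3.05 in 2N and from 0.59 through 1.85 to 3.59 in aneuploid libraries. The median difference of the 6 tested genes was -0.46, beside 0.05 over all genes. The genes of chromosome IV as a whole, which carries LYS4, LYS20 and LYS21, had a median of -0.16 relative to all genes, and chromosome II, which carries LYS2, 0.11.

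The lower values were not equally clear in each experiment. In exp1 alone, LYS2 (-0.60, adjusted p = 0.0390), LYS20 (-0.95, adjusted p = 0.0140) and LYS21 (-0.98, adjusted p = 0.0165) passed the test and LYS4 did not (-0.66, adjusted p = 0.0516). In exp2 alone LYS4, LYS21 and LYS2 differed by -0.79, -0.72 and -0.49, LYS20 by 0.06, and none passed. In exp3 alone the 4 differences were -0.56, -0.47, -0.11 and, for LYS20, -0.72, again with none past the threshold. LYS20 lost its call when any of 15 libraries of the 44 was left out, with adjusted p-values up to 0.123.

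Among other genes of lysine synthesis and its surroundings, ACO1, the aconitase gene of the citric acid cycle, was higher by 0.62 (adjusted p = 3.48e-05). ARO8 (0.01), GCN4 (-0.00), the lysine permease gene LYP1 (0.18) and MKS1 (0.32), a regulator of nitrogen and retrograde signalling, did not pass. Of 34 tested genes that make other amino acids, 15 were lower and 2 higher, with a median of -0.27. The called ones included HIS4 of histidine synthesis (-1.04), HIS1 (-0.73), HOM2 of the threonine and methionine branch (-0.59) and LEU1 of leucine synthesis (-0.60). General stress genes moved the other way, with 5 of 6 higher. Their mean level ran from 3.52 to 6.24 in 2N and from 3.79 to 8.26 in aneuploid libraries on the log2 scale rescaled to the table's total. Their part in the lysine result was not tested.

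**Figure D1:**
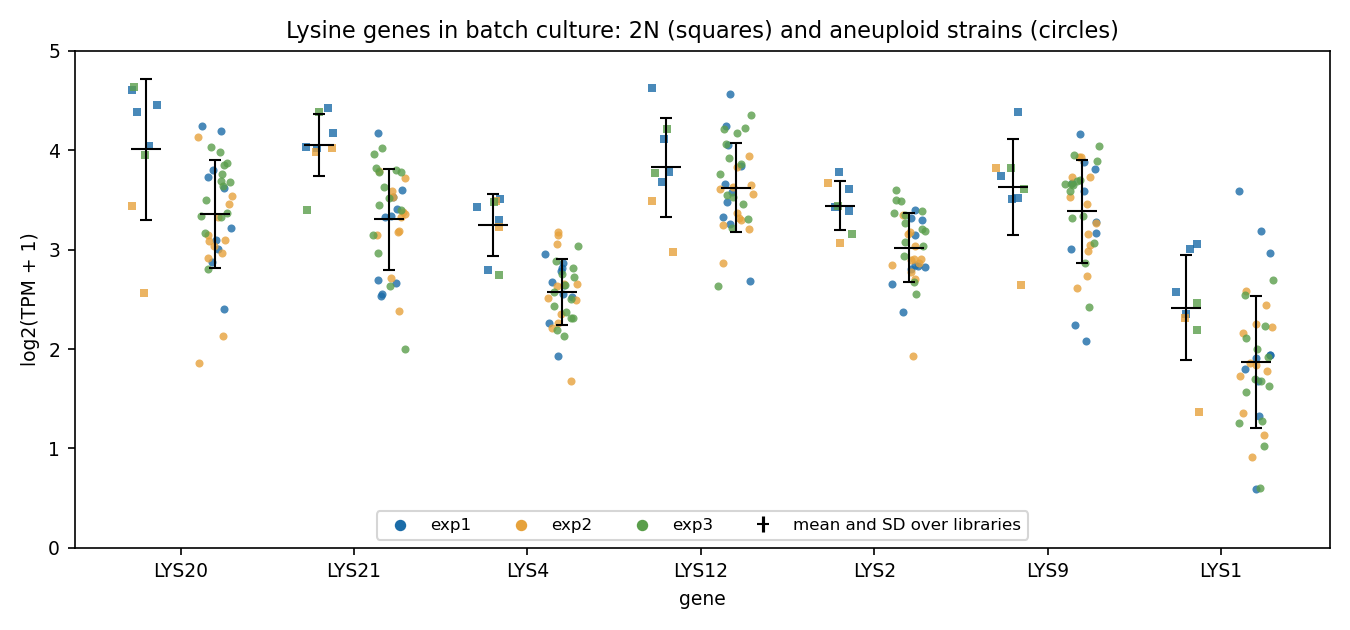
Level of each lysine gene in log2(TPM + 1) in the batch libraries of exp1 to exp3. Squares are 2N and circles aneuploid libraries, and the bars show the mean and SD over libraries. With the experiments pooled, 25 of the 36 aneuploid libraries of LYS4 sit below the lowest of the 8 squares.

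Strain by strain, LYS2, LYS4 and LYS21 were below 2N in 10 of 10 aneuploid strains in batch culture. All strains were set against the same 2N libraries, so these differences are not independent. Of 60 tests of a gene in a strain, 19 were lower and 0 higher, against 4.93% lower over all genes and strains. LYS4 was lower in 6 strains, from -0.52 in A21 to -1.04 in A18. LYS21 was lower in 5, from -0.82 in A20 to -1.34 in A25, with A19 (-1.22), A27 (-1.20) and A23 (-0.96) between them. LYS2 was lower in A20 (-0.92), A18 (-0.71) and A19 (-0.54). The remaining calls were LYS9 in A18 (-1.24) and A23 (-0.75), LYS20 in A23 (-1.18) and A20 (-0.81), and LYS12 in A21 (-0.66). A20 and A23 had 4 called genes each, while A1 and A35 had none. In A35 the difference for LYS12 was 0.57 and in A1 that for LYS20 was 0.33, neither past the threshold.

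The chromosomes that carry the genes also differed between strains. Relative to all genes, the median of chromosome IV was -0.29 in A23, -0.25 in A18 and A19 and 0.17 in A21. A21 thus had a lower LYS4 with higher levels of chromosome IV as a whole. The median of chromosome IX was -0.27 in A21, the one strain with a called LYS12, and -0.36 in A22 and -0.21 in A27, where LYS12 was not called.

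**Figure D2:**
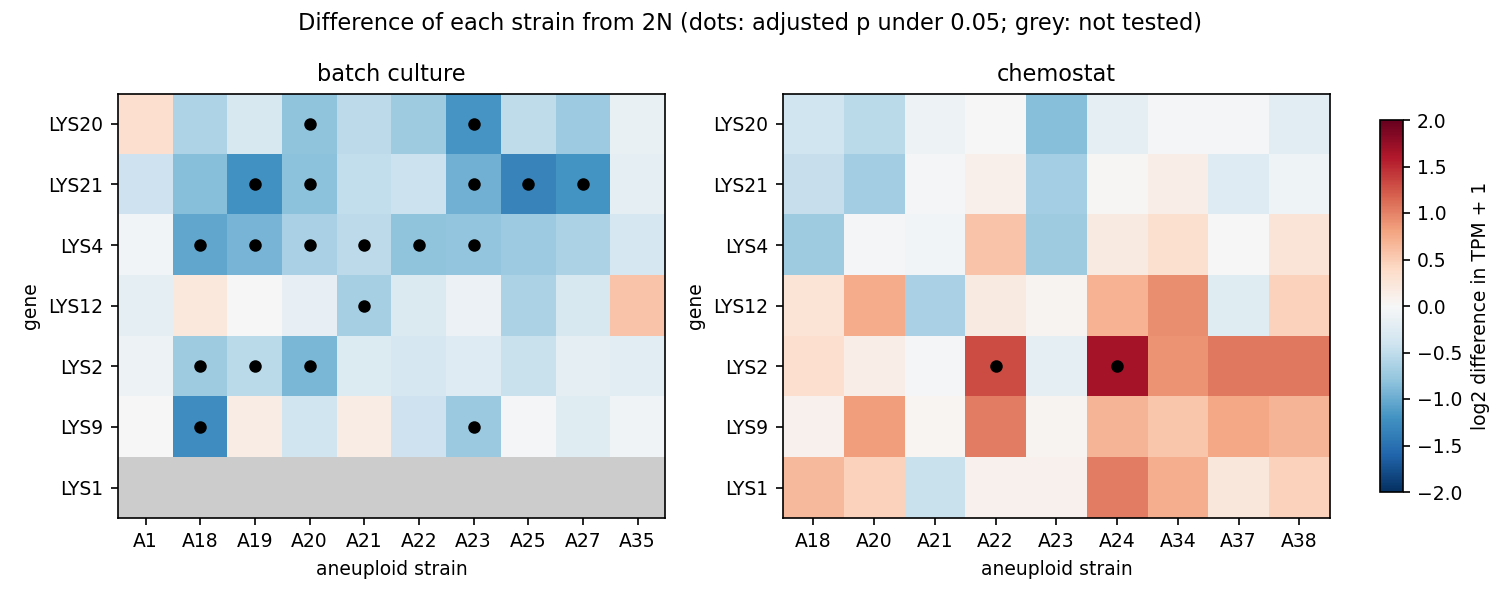
Log2 difference of each aneuploid strain from 2N for each lysine gene, in batch culture and in the chemostat, with dots at an adjusted p under 0.05 and grey where not tested. Dots mark 19 lower values in batch culture and, in the chemostat, 2 higher values of LYS2.

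The chemostat comparison asked the same question at a fixed growth rate. LYS20 had the highest level of the 7 genes there, at 9.68 and 9.78 in the 2N libraries and from 8.67 through 9.47 to 10.32 in the aneuploid ones. LYS4 stood at 6.62 and 6.83 in 2N and ran from 5.15 through 6.88 to 7.49 in aneuploid libraries. LYS21 stood at 8.65 and 8.98 in 2N and ran from 7.81 through 8.60 to 9.45. For these genes, which were lower in batch culture, the 2N libraries sat inside the aneuploid range. The 2N libraries did so for the other genes as well. LYS12 stood at 7.82 and 7.97, LYS9 at 7.73 and 7.79 and LYS1 at 7.61 and 8.07 in 2N. Their aneuploid medians were 8.13, 8.11 and 8.12. Many aneuploid libraries still lay outside the pair of 2N libraries. For LYS20, 13 of 18 lay below both and 5 above both, for LYS21 11 and 3, and for LYS4 6 and 10. For LYS9, 3 lay below both and 14 above both, for LYS12 4 and 13, for LYS2 3 and 13, and for LYS1 1 and 9.

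None of the 7 genes passed the limma test of the aneuploid mean against 2N, against 16.0% of 5674 genes in the table. The differences were -0.02 ± 0.33 for LYS4 (adjusted p = 0.976), -0.22 ± 0.24 for LYS21 (adjusted p = 0.594), -0.26 ± 0.30 for LYS20 (adjusted p = 0.600), 0.28 ± 0.25 for LYS12 (adjusted p = 0.498), 0.36 ± 0.29 for LYS1 (adjusted p = 0.442), 0.52 ± 0.42 for LYS9 (adjusted p = 0.430) and 0.69 ± 0.29 for LYS2 (adjusted p = 0.126). The median over all genes was -0.17, and relative to it the values ran from -0.09 for LYS20 to 0.86 for LYS2. These standard errors are larger than in batch culture for each gene tested in both. LYS14, the pathway's activator, was the one gene called among 8 others of the pathway, lower by -1.08 (adjusted p = 0.000883). Among 38 other amino acid genes 1 was higher and 1 lower.

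LYS2 was the one member with strain calls in the chemostat. Its 2N libraries stood at 5.38 and 5.82, those of A24 at 7.61 and 6.93 and those of A22 at 6.95 and 6.85, so both strains lay above both 2N libraries. The differences were 1.66 ± 0.39 (adjusted p = 0.0123) and 1.30 ± 0.39 (adjusted p = 0.0371). These were the 2 called of 63 tests, against 4.22% higher over all genes and strains. The library names carry the codes d204 and d236, whose meaning the labels do not give. LYS2 ran from 5.23 through 5.49 to 6.18 in the 8 libraries with d204, which include 2N, and from 5.61 through 6.79 to 7.61 in the 12 with d236, which include A22 and A24, so code and strain cannot be told apart. Without 2N replicate 1 neither call remained, and 1 remained without 2N replicate 2, either A22 library or A24 replicate 1.

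A direct test of the difference between the batch and chemostat contrasts called LYS2 alone, with a log2 difference of -1.09 ± 0.26 (adjusted p = 0.0102), against 2.76% of 5064 genes in either direction and 0.928% lower. The median over all genes was 0.16, and relative to it LYS2 differed by -1.26. The other 6 ran from -0.26 for LYS20 to -0.81 for LYS9 and did not pass. LYS2 was no longer called over the 5 strains in both settings (-0.82, adjusted p = 0.105), with d204 libraries only (-0.38, adjusted p = 0.580) or without chemostat 2N replicate 1 (-0.88). The settings differ in medium, growth and library preparation, which cannot be told apart.

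Experiments exp4 to exp6 held no euploid strain, so the question was how far aneuploid strains differ from each other. In exp5 and exp6 all 7 genes differed among strains, as did most genes of the table. In exp6, A32 had the highest and A33 the lowest mean of all 8 strains for 7 of 7 genes. LYS1 stood at 8.54, 8.70 and 8.50 in A32 and at 4.21, 4.22 and 4.14 in A33. LYS20 stood at 9.77, 9.90 and 9.67 in A32 and at 6.65, 6.70 and 6.65 in A33. LYS2 stood at 5.99, 5.96 and 5.86 in A32 and at 3.87, 3.79 and 3.79 in A33. No library of these strains overlapped for any of the 3 genes. A34 was close to A32, with means of 9.51 for LYS20, 8.39 for LYS21, 8.98 for LYS12 and 8.06 for LYS1.

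The moderated F test of limma called 7 of 7 genes in exp6, against 94.7% of all genes. The range of strain means was 4.39 for LYS1, 3.12 for LYS20, 2.67 for LYS21, 2.58 for LYS12, 2.21 for LYS9, 2.12 for LYS2 and 1.84 for LYS4, while the median range over all genes was 1.02. In exp5, with 12 strains, 7 of 7 were called against 98.4% of all genes, with ranges from 1.53 for LYS4 to 3.30 for LYS1 beside a median of 0.995 over all genes. There A34 was highest for 4 genes and A35 for LYS1 (7.12) and LYS12 (8.20), whereas A36 was lowest for 4, with means of 3.82 for LYS1, 3.52 for LYS2 and 5.61 for LYS9. In exp4, on total RNA, 4 of 7 were called against 28.2% of genes. LYS21 differed by 2.03 between its highest and lowest strain (adjusted p = 0.0120), LYS9 by 1.43 (adjusted p = 0.0244), LYS12 by 1.21 (adjusted p = 0.00421) and LYS20 by 1.09 (adjusted p = 0.0373), while the median range over all genes was 1.21. With chromosomes centred on their medians none of the 4 passed (adjusted p = 0.0616 for LYS21, 0.138 for LYS9, 0.191 for LYS20 and 0.329 for LYS12). In exp4, LYS21 stood at 4.13 and 4.03 in the libraries named A18, the highest strain by mean, and at 1.94 and 2.83 in A23. The lowest strain was A25, at 2.05 in its only exp4 library. A20 also had 1 library in exp4. LYS20 lost its exp4 call when any of 11 of the 18 libraries was left out, and without either A36 library 2 of 7 genes were called. Strains next to each other in the order of means overlapped in 46 of 63 cases in exp4, 39 of 77 in exp5 and 15 of 49 in exp6.

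A32 and A34 also had high levels of chromosome IV, home of LYS20, LYS21, LYS4 and the activator gene LYS14. Relative to all genes, the median of that chromosome in exp6 was 0.50 in A32, 0.50 in A34 and 0.41 in A38. LYS14 stood at 5.89 in A34, 5.72 in A32 and 5.43 in A38, and at 4.65 or less in the other strains of exp6. Chromosome II, home of LYS2, was at -0.37 in A32 and -0.32 in A34, yet LYS2 was high in both. After subtraction of the chromosome's own median, the A32 values in exp6 relative to the median of the strains were 1.75 for LYS1, 1.50 for LYS9, 1.33 for LYS20, 1.29 for LYS21, 1.19 for LYS12, 1.05 for LYS2 and 0.83 for LYS4. In A33 they were -1.91 for LYS1 and -1.41 for LYS2. In A38, which shared the high chromosome IV and LYS14, they were -0.21 for LYS4, -0.16 for LYS20, -0.05 for LYS2, -0.02 for LYS1, 0.27 for LYS9, 0.36 for LYS12 and 0.45 for LYS21. Whether the copies of chromosome IV or of LYS14 set these levels was not tested.

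Over the 8 strains in both exp5 and exp6, Pearson's r between the means of the experiments was 0.82 for LYS2 to 0.96 for LYS21, a description over points that share the strain. Levels in exp6 were above those in exp5 in 8 of 8 strains for LYS1 (mean difference 1.24), LYS21 (0.76) and LYS12 (0.59), and in 6 of 8 for LYS2 (0.47). The mean level of the stress genes ran from 3.16 to 5.97 in exp5 and from 5.71 to 7.49 in exp6.

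**Figure D3:**
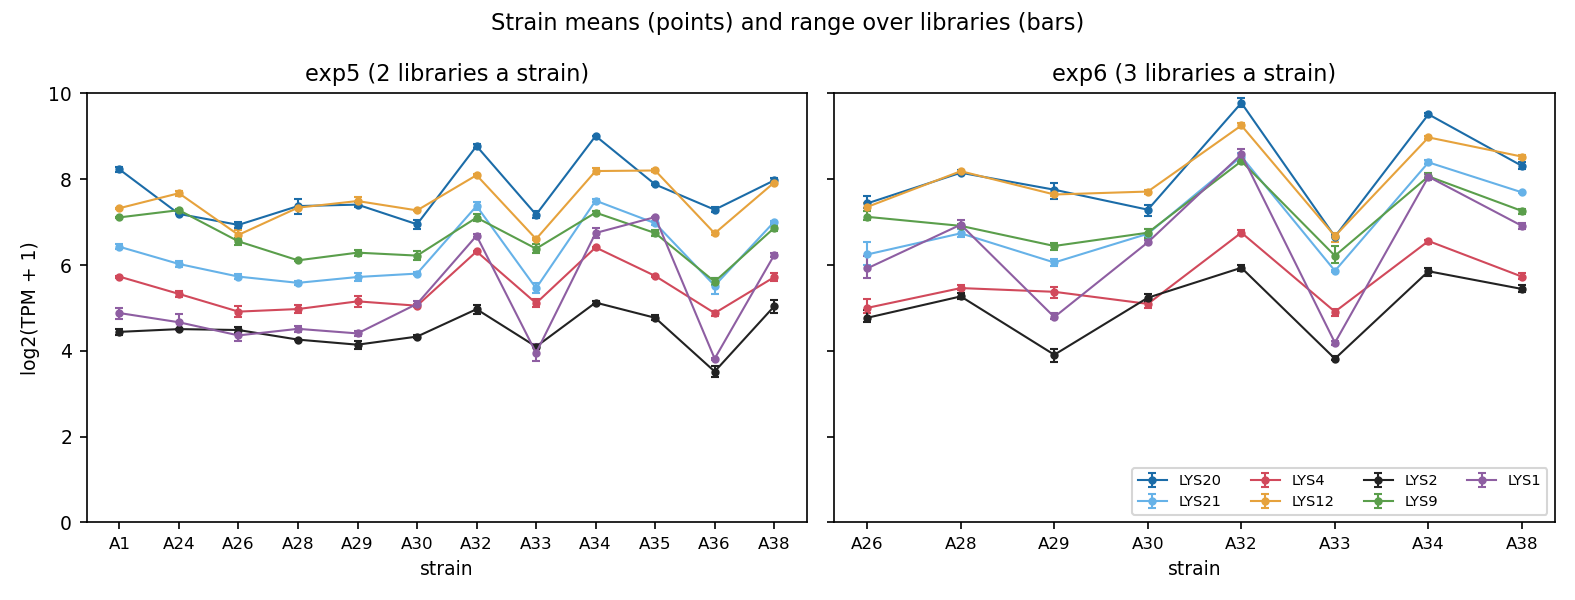
Mean of each strain for each lysine gene in log2(TPM + 1) in exp5 (2 libraries a strain) and exp6 (3 libraries a strain), with bars for the range over libraries and lines only to guide the eye. In exp6 all 7 genes are highest in A32 and lowest in A33.

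The populations of spore progeny gave small spreads between replicates, and for LYS20 and LYS4 opposite directions between protocols. With the Tsai protocol, LYS20 stood at 5.81, 5.80 and 5.97 in the euploid pool and at 6.56, 6.61 and 6.54 in the aneuploid pool, where it was higher in every library. With the Dilution protocol it stood at 7.39, 7.53 and 7.61 in the euploid and at 6.99, 6.93 and 6.99 in the aneuploid pool, where it was lower in every library. LYS4 followed the same order: 5.10, 5.09 and 5.32 (euploid) against 6.05, 5.98 and 5.99 (aneuploid) with Tsai, and 6.00, 5.89 and 5.81 against 5.56, 5.68 and 5.71 with Dilution. Neither gene overlapped between the pools of either protocol. LYS2 stood at 4.04, 3.78 and 4.07 against 4.08, 4.01 and 3.95 with Tsai, which overlapped, and at 4.52, 4.56 and 4.38 against 3.89, 4.06 and 3.77 with Dilution, which did not.

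With Tsai, 5 of 7 lysine genes were higher in the aneuploid pool, against 41.0% of 5699 genes higher and 75.7% called in either direction. LYS4 was higher by 0.84 ± 0.07 (limma adjusted p = 2.61e-09), LYS20 by 0.71 ± 0.06 (adjusted p = 2.62e-09), LYS12 by 0.49 ± 0.04 (adjusted p = 2.06e-08), LYS1 by 0.48 ± 0.05 (adjusted p = 3.04e-07) and LYS9 by 0.32 ± 0.04 (adjusted p = 3.20e-06). LYS2 (0.05, adjusted p = 0.593) and LYS21 (-0.05, adjusted p = 0.271) did not pass, though LYS21 was called lower with rescaling or libraries centred (-0.11 in both). With Dilution all 7 were called, against 75.9% of genes: LYS2 (-0.58 ± 0.09), LYS20 (-0.55 ± 0.06), LYS4 (-0.25 ± 0.07), LYS21 (-0.17 ± 0.04) and LYS9 (-0.10 ± 0.04) were lower, where 15.1% of all genes were, and LYS1 (0.40) and LYS12 (0.21) were higher, where 60.9% were. The median over all genes was 0.27 with Dilution and 0.05 with Tsai. Relative to it the Dilution values were -0.85 for LYS2, -0.81 for LYS20, -0.52 for LYS4, -0.44 for LYS21, -0.37 for LYS9, -0.06 for LYS12 and 0.14 for LYS1, so LYS12 turned direction, and with chromosomes centred LYS1 was no longer called (0.08, adjusted p = 0.197). The adjusted p of LYS9 with Dilution was 0.0373, and leaving out a single library moved it past the threshold in 5 of 15 cases.

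The difference between the protocols was tested directly. The aneuploid effect was higher with Tsai for LYS20 by 1.25 ± 0.08 (adjusted p = 1.40e-10), LYS4 by 1.09 ± 0.09 (adjusted p = 9.15e-09), LYS2 by 0.63 ± 0.12 (adjusted p = 0.000190), LYS9 by 0.42 ± 0.06 (adjusted p = 6.97e-06) and LYS12 by 0.28 ± 0.06 (adjusted p = 0.000627). These were 5 of 7, against 24.7% of all genes higher and 75.0% in either direction, where the median over all genes was -0.26. Relative to it the differences were 1.51 for LYS20, 1.35 for LYS4, 0.89 for LYS2, 0.68 for LYS9, 0.54 for LYS12, 0.38 for LYS21 and 0.34 for LYS1. LYS1 (0.08, adjusted p = 0.344) and LYS21 (0.12, adjusted p = 0.0522) did not pass. Both were called with libraries or chromosomes centred (LYS1 0.27 and 0.28, LYS21 0.31 and 0.37), and LYS21 also with log2(TPM + 0.1) (adjusted p = 0.0498) and with no filter (adjusted p = 0.0171). Of the 39 other amino acid genes, 31 were higher with Tsai and 2 lower, among them ASN1 of asparagine synthesis (1.92), LEU1 (1.51), HIS1 (1.40) and THR1 of threonine synthesis (1.35). With Dilution 19 were higher and 6 lower. The stress list ran against LYS20 and LYS4. In the aneuploid pool 8 of 10 were lower and 2 higher with Tsai. With Dilution 8 of 10 were higher, as were LYS1 and LYS12. The mean level of the stress list was 9.43 to 9.51 in the euploid and 8.66 to 8.73 in the aneuploid Tsai pool, and 7.13 to 7.24 and 8.10 to 8.16 in the Dilution pools. Haploid markers were lower in both aneuploid pools (6 of 6 each). The part of either in the lysine result was not tested.

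Set against the exponentially growing WT haploid, both euploid pools had low lysine genes. LYS20 stood at 9.05, 9.05 and 9.08 in WT and was lower by -3.20 in the Tsai and -1.55 in the Dilution euploid pool. LYS2 stood at 6.90, 6.77 and 6.84 in WT and was lower by -2.87 and -2.35. LYS21 changed least, from 7.80, 7.82 and 7.80 in WT, by -0.64 and -0.99. All 7 were lower in both comparisons, where 40.6% (Tsai) and 42.3% (Dilution) of all genes were lower and 84.5% and 71.3% were called in either direction. The median of the 7 was -2.02 with Tsai and -1.46 with Dilution. Of the 39 other amino acid genes, 32 and 31 were lower, while 10 and 9 of 10 stress genes were higher. The mean stress level of WT was 5.14 to 5.25. The 4 alpha-cell markers were higher in both pools, with a mean level of 10.72 to 10.92 there and of 1.96 to 2.28 in WT. Both comparisons use the same WT libraries.

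**Figure D4:**
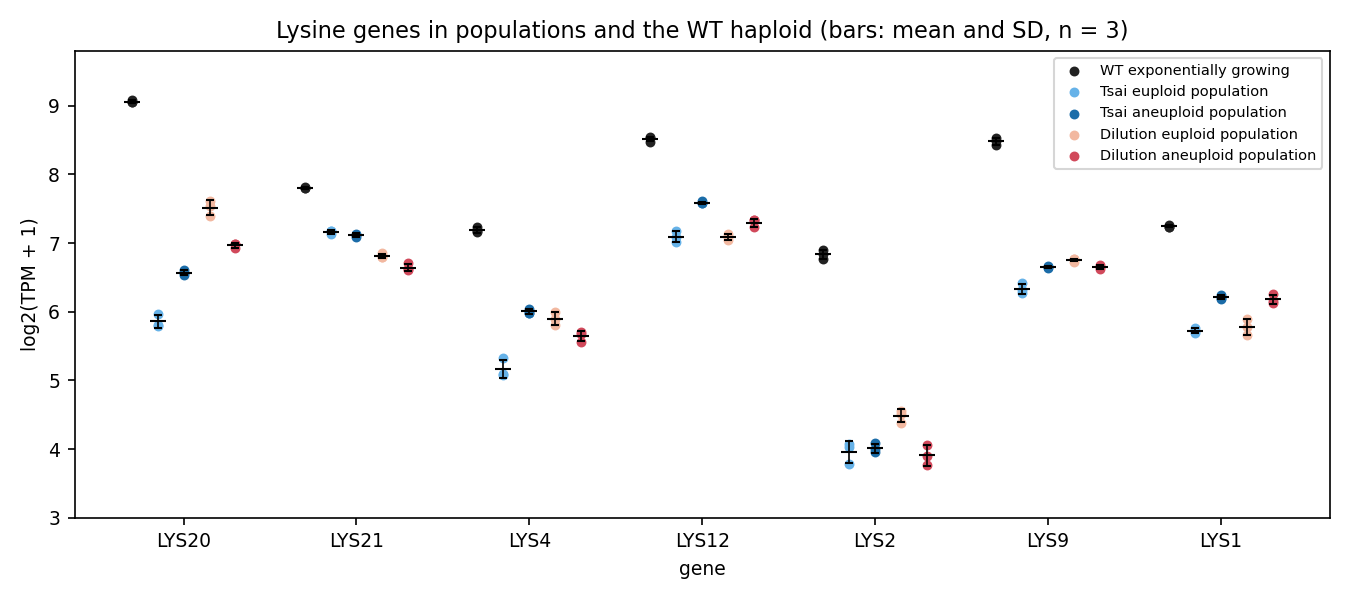
Level of each lysine gene in log2(TPM + 1) in the 3 libraries of each population and of the WT haploid, with bars for the mean and SD. LYS20 and LYS4 are higher in the aneuploid than in the euploid pool with Tsai and lower with Dilution, and all 7 genes are highest in WT.

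In the time course of the WT haploid, most of the pathway stood near its starting level at 12 h. At 16 h, 5 of the 7 genes were called lower than at 14 h. LYS12 stood at 8.06 and 8.01 at 0 h, 8.38 and 8.24 at 12 h, 8.19 and 7.82 at 14 h and 6.23 and 5.52 at 16 h. LYS4 stood at 5.98 and 6.04 at 0 h, 6.00 and 5.82 at 12 h, 5.57 and 5.35 at 14 h and 3.31 and 3.43 at 16 h. For both genes the 16 h libraries lay below every earlier one. LYS2 stood at 5.04 and 4.97 at 0 h, 4.62 and 4.19 at 14 h and 2.94 and 2.86 at 16 h. LYS20 stood at 8.61 and 8.74 at 0 h, at 7.55 and 7.30 at 6 h, at 8.03 and 7.88 at 12 h, at 7.32 and 6.90 at 14 h and at 6.15 and 6.18 at 16 h. The table held 71.51% and 58.95% of the TPM total at 6 h, against 92.26% and 94.38% at 0 h. On the rescaled log2 scale LYS20 stood at 8.73 and 8.82 at 0 h and at 8.03 and 8.06 at 6 h, with no test of that step.

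Between 14 and 16 h, 5 of 7 genes were called lower, against 13.6% of 5444 genes called lower and 27.4% called in either direction. LYS12 changed by -2.13 ± 0.53 (limma adjusted p = 0.00140), LYS4 by -2.09 ± 0.57 (adjusted p = 0.00387), LYS9 by -1.63 ± 0.55 (adjusted p = 0.0219), LYS2 by -1.50 ± 0.52 (adjusted p = 0.0248) and LYS21 by -1.40 ± 0.51 (adjusted p = 0.0348). LYS20 (-0.94, adjusted p = 0.210) and LYS1 (-0.71, adjusted p = 0.319) did not pass. The median over all genes was 0.23, and relative to it the changes ran from -0.95 for LYS1 to -2.36 for LYS12. The spread in this fit comes from all times, and with the times from 0 to 20 h only, all 7 were called. LYS20 and LYS1 were also called lower with rescaling and with libraries or chromosomes centred (limma adjusted p up to 0.0151). With 2 libraries a time, 2 of 7 passed without either 14 h library or 16 h replicate 1, and 1 of 7 without 16 h replicate 2. Of 38 other amino acid genes, 23 fell, with HIS1 at -3.80, ARG1 of arginine synthesis at -3.62 and ASN1 at -3.02. LYS14 (0.35) and GCN4 (-0.27) did not pass. All 10 stress genes rose, and their mean level was 3.31 to 5.43 from 0 to 12 h, 6.98 to 7.06 at 14 h and 10.34 to 10.39 at 16 h. Their part in the lysine result was not tested.

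No lysine gene passed the test of 8 to 12 h against 0 to 4 h, where 1.16% of genes did, or that of 14 h against 10 and 12 h, where 1.01% did. LYS20 had the difference of largest size in both, -0.65 (adjusted p = 0.900) and -0.84. With the times from 0 to 20 h only, with rescaling or with libraries or chromosomes centred, LYS20 was called lower in both (adjusted p up to 0.00682 in the first and 0.0170 in the second). At 14 h LYS2 was also called lower with rescaling and either centring (adjusted p up to 0.0111), and LYS9 with rescaling (adjusted p = 0.0488) and libraries centred (adjusted p = 0.0158).

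Levels after 16 h are given first on the log2 scale rescaled to the table's total, without a test. The mean of the 7 genes was 5.06 and 5.18 in the 16 h libraries and 5.82 to 5.91 at 18 and 20 h. The median went from 6.38 to 7.76 for LYS20, from 5.52 to 6.66 for LYS21, from 3.09 to 4.11 for LYS2, from 3.57 to 4.50 for LYS4, from 6.10 to 6.79 for LYS12 and from 5.62 to 5.83 for LYS1. LYS9 alone of the 7 went down, from 5.54 to 5.16. Without rescaling, LYS20 stood at 6.83 and 7.49 at 18 h and at 6.86 and 7.37 at 20 h. These values lay above both 16 h libraries. LYS9, also without rescaling, stood at 4.36 and 4.51 at 18 h and at 4.32 and 4.80 at 20 h. Its values lay below both of its 16 h libraries (5.46 and 5.20). The table held 97.03% and 75.81% of the TPM total at 16 h and 52.6% to 80.61% at 18 and 20 h. From 18 and 20 h to 22 to 26 h, 6 of 7 genes were lower, against 63.6% of genes lower and 64.5% called in either direction, with a median of -0.93 over all genes. Relative to that median the changes were -0.99 for LYS20, -0.73 for LYS21, -0.33 for LYS12, -0.24 for LYS9, -0.19 for LYS1, -0.16 for LYS2 and 0.64 for LYS4. With libraries or chromosomes centred on their medians, the calls of LYS1, LYS2 and LYS9 were lost (adjusted p = 0.0795 to 0.413), that of LYS1 also with rescaling (adjusted p = 0.257), and LYS4 was called higher under all 3 (adjusted p = 0.00172 to 0.00383). Without rescaling, the replicates of these late times were far apart, with LYS20 at 3.86 and 6.12 at 24 h. The table held 15.37% and 61.14% of the TPM total in the 24 h libraries. On the rescaled scale the mean of the 7 genes ran from 5.27 to 5.65 over the 22 to 26 h libraries.

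**Figure D5:**
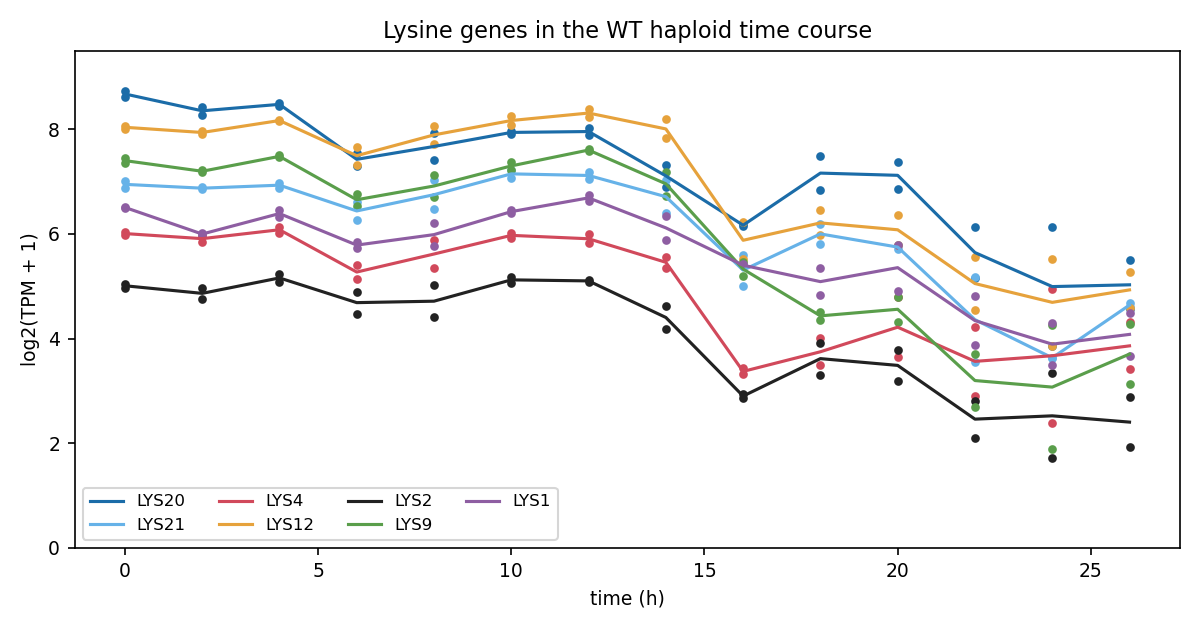
Level of each lysine gene in log2(TPM + 1) against time in h in the WT haploid culture, with a point for each of the 2 libraries a time and lines through their means. LYS12 and LYS4 step down between 14 and 16 h.

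Levels per transcript length can be ordered within a setting. In the WT haploid of the population set LYS20 was highest and LYS2 lowest in each of the 3 libraries, with LYS12 and LYS9 next to each other and overlapping in their ranges (8.48, 8.53 and 8.54 against 8.42, 8.49 and 8.52). By mean, LYS2 was also the lowest of the 7 in the pools and at every time of the time course. In the chemostat LYS2 had the lowest median in the libraries of either code. The lowest single value with d236, though, was 5.15 for LYS4, against 5.61 for LYS2. In the total RNA of 2N in batch culture LYS1 had the lowest median (2.40) and LYS20 the highest (4.21). Over 20 strain means of exp5 and exp6, Pearson's r between pairs ran from 0.76 (LYS2 and LYS20) to 0.97 (LYS4 and LYS20). Over the 14 time means it ran from 0.87 (LYS4 and LYS20) to 0.98 (LYS9 and LYS12, LYS2 and LYS12). These points share libraries and, for strains, the copies of whole chromosomes.

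The mean of the 6 genes other than LYS2 had the most similar course over the 14 times, by Pearson's r, to PRO2 of proline synthesis (0.995), GIS2 (0.993), GSP1 (0.992), VTC4 (0.991) and THR1 (0.991), while LYS14 had 0.147 and GCN4 0.466. Over the 20 strain means, the genes most like it were YDR341C (0.965), TRP4 of tryptophan synthesis (0.958), HOM2 (0.954), SWM1 (0.947) and RIB3 (0.946), all of chromosome IV, and LYS14 had 0.926 and GCN4 0.708. LYS2, on chromosome II, was most like ARO3 of aromatic amino acid synthesis (0.960), GGC1 (0.957), UGA3 (0.954), HOM2 (0.946) and ARG4 (0.945) over the same strains. Of these, ARO3, GGC1, UGA3 and HOM2 are also of chromosome IV. Over the times LYS2 was most like the phosphate transporter gene PHO84 (0.995), MAE1 (0.990), the lysyl-tRNA synthetase gene KRS1 (0.990) and LEU1 (0.988).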

How the data were processed

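Total or poly(A) RNA of yeast strains, populations and cultures was sequenced. The deposited table gives log2(TPM + 1) for each gene and library, and the submitters' processing notes name STAR 2.5.3a, RSEM 1.3.0 and sacCer3, without their role or order. The sources do not state whether strand was used, nor how the authors assigned reads shared by paralogs. Read counts were not analysed, so the depth and the counting error are unknown and the number of replicates sets the precision.

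Libraries were grouped by their titles. The deposited log2 values were fitted with limma 3.58.1 (R 4.3.3, trend = TRUE) across all genes with a mean of at least 2 over the libraries of a fit, with Benjamini-Hochberg adjustment over all genes tested and an adjusted p under 0.05 as the call. Fold changes are on the log2(TPM + 1) scale with a pseudocount of 1, which understates the change of low genes. Strain and experiment were terms in batch culture, strain in the chemostat and in exp4, exp5 and exp6, group in the populations and time in the time course, with no replicate block. The named genes were the 7 members, 8 further genes of lysine synthesis, control and uptake (1 of them is not reported here), examples from the list of other amino acid genes, and the 5 genes most like the members by Pearson's r. The members and all lists were chosen with earlier results of these data known. Mean levels of a list are means over its genes of log2 values after TPM was rescaled to the same total over the table in every library. Alternatives covered the pseudocount, filter, scaling, block, experiment and each library left out. The fits were tested on simulated data. Upstream sequence came from RefSeq R64, whose coordinates matched the sacCer3 annotation for 5981 of 5989 genes. Python 3.11.15, pandas 2.3.3, numpy 2.4.6 and matplotlib 3.10.9 were used for tables and figures. No 2 libraries held identical values.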

Additional observations from a re-analysis of the deposited data

Results flagged for a closer look

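Differences between settings or protocols in the aneuploid effect were each tested by the interaction term of the limma fit. LYS2 differed between batch culture and the chemostat by -1.09, where 2.76% of all genes were called. That call was lost over the 5 strains in both settings and with d204 libraries only. Between the Tsai and Dilution protocols, the difference was 1.25 for LYS20, 1.09 for LYS4, 0.63 for LYS2, 0.42 for LYS9 and 0.28 for LYS12. There 75.0% of all genes were called in either direction and 24.7% higher. Among the groups of 4 to 10 libraries no library lay far outside the others for any of the 7 genes, and 2N in exp1 was the one such group.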

How the results depend on the processing

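Counts below are of lysine genes called. With the filter at a mean of 4, the called tests of single batch strains went from 19 to 0, the batch mean from 4 to 0 and exp4 from 4 to 1, since most members then left the test. The batch count was also 0 in exp2 alone, in exp3 alone and with strain as a random block. The 2 strain calls of the chemostat became 5 with TPM rescaled over the table, 4 with libraries centred on their median, 1 with no filter and 0 with d204 libraries only. The batch and chemostat difference went from 1 to 0 over the 5 shared strains and with d204 libraries only, both chosen after seeing the data. For 8 to 12 h against 0 to 4 h the count went from 0 to 1 with rescaling and with libraries or chromosomes centred. For 14 h against 10 and 12 h it went from 0 to 3, 3 and 2 under these. With times from 0 to 20 h only, chosen after seeing the data, both became 1. Exp4 had 0 with chromosomes centred. The cause of these moves was not tested.

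Directions turned for LYS20 in exp2 alone (0.057), for LYS12 with Dilution (-0.040 and -0.11 with libraries or chromosomes centred) and for LYS4 at 22 to 26 h (0.59, 0.66 and 0.66 with rescaling or centring). With single libraries left out, the counts ran from 16 to 20 for batch strains, 3 to 4 for the batch mean, 0 to 3 for chemostat strains, 0 to 1 for the batch and chemostat difference, 1 to 6 for 16 h, 4 to 7 for 22 to 26 h and 2 to 4 for exp4. They ran from 5 to 6 for the protocol difference and from 6 to 7 with Dilution.

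The replicate numbers were not shown to pair libraries: in the chemostat, correlations of deviations ran from -0.584 to 0.483. The replicate block changed the call of 1 member result, LYS20 in batch culture (-0.48, adjusted p = 0.112), and left 103 as they were. LYS20 in batch also missed the threshold with log2(TPM + 0.1) (adjusted p = 0.0523), no filter (0.0805) and chromosomes centred (0.120), and LYS9 in batch passed with chromosomes centred (-0.49). Over all genes, the 448 called in batch became 263 with the filter at 4, 272 in exp1, 143 in exp2 and 1 with the random block. The 907 of the chemostat became 561 with chromosomes centred and 531 with d204 only, the 140 of the batch and chemostat difference 78 with rescaling, and the 1000 of exp4 289 with chromosomes centred and 587 with the filter at 4. With rescaling, libraries centred, chromosomes centred and times to 20 h, the 63 at 8 to 12 h became 755, 824, 809 and 327, the 55 at 14 h became 909, 1015, 985 and 450, and the 1490 at 16 h became 3268, 3226, 3224 and 2893. The 3509 at 22 to 26 h became 1822, 1960 and 1933 under the first 3. The share of calls that were higher moved from 70.5% to 59.6%, 47.9% and 55.7% in batch, from 18.1% to 33.2%, 47.1% and 49.6% in the chemostat, and from 66.4% to 32.1%, 31.4% and 31.8% in their difference. It moved from 1.37% to 39.6%, 55.3% and 52.5% at 22 to 26 h and from 80% to 65.8%, 63.1% and 61.3% at 14 h. At 16 h it moved from 50.3% to 62.5% with rescaling. With libraries and with chromosomes centred it moved from 80.2% to 51.1% and 50.4% with Dilution, and from 32.9% to 45.2% and 45.5% for the protocol difference.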

Other observations

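The W303 haploid A2587, held in 500 mM NaCl for 40 min, had no untreated partner and entered no comparison. In its 3 libraries LYS20 ran from 3.17 to 3.77 in log2(TPM + 1) and LYS21 from 3.03 to 3.83. LYS2 ran from 2.57 to 2.92, LYS9 from 2.17 to 2.80, LYS12 from 1.43 to 2.80, LYS1 from 1.43 to 2.50 and LYS4 from 1.48 to 1.88. The synthases of the first step had the highest levels per transcript length in these libraries, and LYS4 the lowest mean.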
